A study of Mus musculus with 8 samples.

Results

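The genes described here are the 4 kinases that phosphorylate the translation initiation factor eIF2 and the proteins that act directly on that phosphorylation: Eif2ak3, Eif2ak4, Eif2ak2 and Eif2ak1 (kinases), Eif2s1 (the substrate), Eif2b4 and Eif2b5 (exchange factor subunits), Ppp1r15a and Ppp1r15b (phosphatase subunits) and Dnajc3 (a kinase inhibitor). They were chosen by name as 10 of 55450 genes in the deposited count table, and all 10 were among the 16662 genes with enough counts to be tested. RNA was sequenced from c-Kit bead-enriched cells of B16F10 tumours, in 4 libraries from PERK KO tumours (numbered 1 to 4) and 4 from Scramble tumours (numbered 2 to 5), each from its own tumour. B16F10 is a pigmented mouse melanoma line, PERK is the product of Eif2ak3, and Scramble is the control line. In the first group the hosts carried PERK KO B16F10 cells and in the other Scramble B16F10 cells. All hosts were wild-type C57BL6 mice aged 6 weeks, injected under the skin with 150000 cells and killed on day 17, so any host cell in the fraction kept an intact Eif2ak3. How the knockout was made, whether the line is 1 clone, and whether each tumour had its own mouse are not given in the sources used here. If some tumours shared a mouse, p-values measure less than the spread between animals. They measure spread between tumours of the same injected cells. Any other difference between the PERK KO and the Scramble cells therefore cannot be told apart from the loss of PERK.

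In the integrated stress response, PERK senses misfolded protein in the endoplasmic reticulum, GCN2 (Eif2ak4) senses uncharged tRNA and stalled ribosomes, PKR (Eif2ak2) binds double-stranded RNA and HRI (Eif2ak1) responds to low haem and, in other cells, to mitochondrial stress. Each phosphorylates the alpha subunit of eIF2, encoded by Eif2s1, which then blocks the exchange factor eIF2B; most translation falls while that of the transcription factor Atf4 rises. Protein phosphatase 1, guided by GADD34 (Ppp1r15a) or CReP (Ppp1r15b), removes the phosphate. Phosphorylation itself was not measured, and every value here is a transcript level.

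The serine that all 4 kinases phosphorylate lies in the exon numbered 2 of 8 in Eif2s1, with its codon at chr12:78866680-78866682 (mm10, plus strand). It is residue 51 when the first methionine is left out and codon 52 when it is counted. The coding sequence around it, from a GENCODE M21 transcript with the serine codon in capitals, is shown because it is the point on which the kinases and the phosphatase meet.
Eif2s1: cttcttagtgaattaTCCagacgacgtatc

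Promoter sequences of 9 members were found in a RefSeq table on GRCm38.p6, as windows from 250 bases before to 50 after the start, and 5 are shown. Those of Eif2ak3 and Eif2ak4 are whole, 300 bases each, because these kinases differed most between the groups and in opposite directions. Each was searched on both strands for TGACGTCA (the cyclic AMP response element), GAAANNGAAA (the interferon-stimulated response element), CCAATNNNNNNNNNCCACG (the endoplasmic reticulum stress element) and CCAAT, which the stress element contains. Capitals mark matches.
Eif2ak3, chr6:70844265-70844564, plus strand: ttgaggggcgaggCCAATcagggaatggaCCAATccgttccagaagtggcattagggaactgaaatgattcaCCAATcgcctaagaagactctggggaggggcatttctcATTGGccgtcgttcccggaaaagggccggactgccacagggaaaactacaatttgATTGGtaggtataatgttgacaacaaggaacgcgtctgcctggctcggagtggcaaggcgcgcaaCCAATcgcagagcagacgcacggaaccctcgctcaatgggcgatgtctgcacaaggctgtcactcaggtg
Eif2ak4, chr2:118388367-118388666, plus strand: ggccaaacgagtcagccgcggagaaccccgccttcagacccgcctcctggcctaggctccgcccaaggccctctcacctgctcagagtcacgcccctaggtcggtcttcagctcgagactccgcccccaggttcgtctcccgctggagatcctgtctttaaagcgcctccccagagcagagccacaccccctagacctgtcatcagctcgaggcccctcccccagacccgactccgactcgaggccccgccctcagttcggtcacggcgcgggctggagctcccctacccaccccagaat
The Eif2ak3 window held 6 matches of CCAAT, counting both strands. Of the 32851 promoter windows in the table, 37.4% held 1 or more matches of this motif, and how many held 6 was not counted. CCAAT also occurred in the windows of Eif2ak1, Eif2b4 and Eif2b5 (1 match each) and Dnajc3 (2 matches). The Eif2ak4 window held none of the 4 motifs.

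For the members below, 80 bases around a match are shown.
Ppp1r15a, chr7:45526237-45526316, minus strand: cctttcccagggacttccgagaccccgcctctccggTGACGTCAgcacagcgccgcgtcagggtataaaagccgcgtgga
Dnajc3, chr14:118937796-118937875, plus strand: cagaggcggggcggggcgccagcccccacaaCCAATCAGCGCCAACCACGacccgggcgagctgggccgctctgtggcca
Eif2ak2, chr17:78882523-78882602, minus strand: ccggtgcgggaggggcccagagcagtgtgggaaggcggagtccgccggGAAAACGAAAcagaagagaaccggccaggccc
The capitals are TGACGTCA in Ppp1r15a (present in 1.79% of windows), the stress element in Dnajc3 (0.119%, 39 windows) and GAAANNGAAA in Eif2ak2 (3.44%). GAAANNGAAA also occurred elsewhere in the windows of Ppp1r15a and Eif2s1. These are matches of letters, and binding was not measured.

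Library totals were 29006949 to 47530393 counts in PERK KO libraries and 44950033 to 56697163 counts in Scramble libraries. Levels are CPM, counts relative to the library total as scaled by TMM factors, and ± gives the SD over 4 libraries. The label calls the cells c-Kit-positive precursors. Yet 12 melanocyte lineage markers summed to 20610 to 25050 CPM in PERK KO libraries and 29090 to 29750 CPM in Scramble libraries, far above 18 pan-leukocyte markers (350 to 1418 CPM in PERK KO, 69.3 to 147 CPM in Scramble) and 8 blood progenitor markers (234 to 435 CPM in PERK KO, 214 to 284 CPM in Scramble). Most of the progenitor sum in Scramble libraries was Kit, the receptor used for enrichment. Without Kit, the 7 others summed to 87.6 to 224 CPM in PERK KO and 44.4 to 62.1 CPM in Scramble libraries, without overlap. Gata2, among these 7, is also in the list of mast cell markers below, so the 2 lists are not separate. Mpo, a progenitor granule enzyme, was at 0 in all 8 libraries, and no other listed marker was. Over all 16662 genes, 7.66% were called higher and 6.13% lower in PERK KO libraries by the test described below. Of the melanocyte markers 6 of 12 were lower in PERK KO libraries. Of the leukocyte markers 17 of 18 were higher, of the progenitor markers 5 of the 7 tested, of mast cell markers 10 of 10 (714 to 3140 CPM in PERK KO, 23.4 to 168 CPM in Scramble) and of epithelial markers 9 of 10 (93.0 to 243 CPM in PERK KO, 3.31 to 5.98 CPM in Scramble). None of 9 endothelial markers passed (75.7 to 278 CPM in PERK KO, 38.1 to 201 CPM in Scramble), nor did any of the 5 tested of 7 erythroid markers (2.81 to 15.1 CPM in PERK KO, 4.53 to 10.6 CPM in Scramble), and 1 of 8 fibroblast markers was higher (57.8 to 207 CPM in PERK KO, 17.1 to 215 CPM in Scramble). In such bulk libraries fewer cells of a type and less RNA per cell cannot be told apart. The part of these marker differences in the results below, on the kinases and on all other genes, was not tested.

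Of the 10 members, 1 rose (Eif2ak4) and 3 fell (Eif2ak3, Dnajc3 and Eif2b5) in PERK KO libraries, by edgeR's quasi-likelihood test at a Benjamini-Hochberg adjusted p under 0.05 over all genes. Over all 16662 genes, 13.8% were called, 7.66% higher and 6.13% lower. Of those calls 55.5% were higher, and 68.7% with upper-quartile in place of TMM scaling. With 10 genes, 1 of them the gene targeted in the injected cells, the members' count gives little to read against that background. Libraries of the groups did not overlap for 3 members (Eif2ak3, Eif2ak4 and Dnajc3), against 21.3% of all genes tested. The median log2 change of the members was -0.08, and that of all genes was -0.02. The 6 other members did not pass the test.

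**Figure D1:**
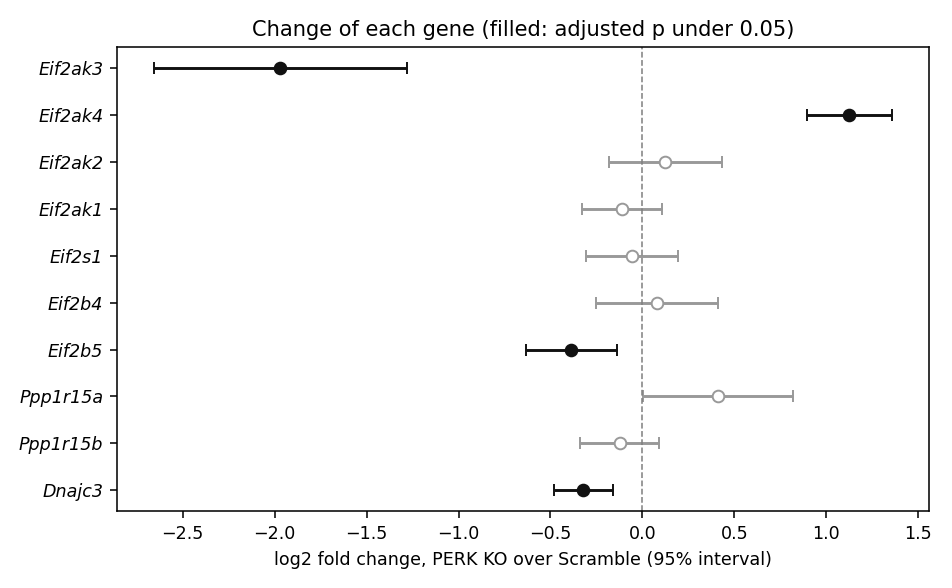
Log2 fold change of each of the 10 genes, PERK KO over Scramble, with the 95% interval from the edgeR fit (n = 4 and 4); filled points passed an adjusted p of 0.05. Eif2ak3 at -1.97 and Eif2ak4 at 1.13 lie farthest from 0, on opposite sides.

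Eif2ak3, on chromosome 6 (mm10, 70844515 to 70905245, plus strand), encodes PERK, the kinase removed from the injected cells. It had 8.61, 7.73, 22.7 and 16.3 CPM in PERK KO libraries 1 to 4, against 53.4, 56.4, 59.2 and 48.3 CPM in Scramble libraries 2 to 5. Every PERK KO library lay below every Scramble library, so all 8 libraries matched their labels. Libraries 3 and 4 kept more of the transcript than libraries 1 and 2. Predicted genes overlap Eif2ak3 on both strands. These levels rest on 257 to 979 counts in PERK KO libraries and 2494 to 3286 counts in Scramble libraries. Its log2 change was -1.97 with an SE of 0.31 (95% interval -2.66 to -1.28, adjusted p = 0.00371 by edgeR), which leaves 25.6% of the Scramble level. In a count per gene, transcripts of the edited cells and of host cells with an intact gene cannot be told apart. In the same order of libraries, the summed leukocyte markers were 350, 629, 429 and 1418 CPM, the mast cell markers 714, 1064, 1598 and 3140 CPM, the endothelial markers 75.7, 206, 278 and 180 CPM and the fibroblast markers 57.8, 93.6, 207 and 135 CPM. The library with the most Eif2ak3, number 3, was highest in the endothelial and fibroblast markers, and number 4 was highest in the leukocyte and mast cell markers. The part of these cells in the remaining Eif2ak3 was not tested.

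Eif2ak4 (chromosome 2, 118388618 to 118475234, plus strand) encodes GCN2, the kinase that carries the amino acid starvation signal. It had 100.9, 105.1, 128 and 93.3 CPM in PERK KO libraries 1 to 4, against 46.8, 50.5, 50.1 and 48.7 CPM in Scramble libraries 2 to 5. The groups did not overlap, the Scramble libraries lay within a narrow range, and the lowest PERK KO library stood well above the highest Scramble library. Mean levels were 106.9 ± 15.1 CPM in PERK KO and 49.0 ± 1.65 CPM in Scramble libraries (SD, n = 4 each). The gene rose by 1.13 in log2 units (SE 0.11, 95% interval 0.90 to 1.36, edgeR adjusted p = 0.000147), a 2.18-fold rise with an interval of 1.86 to 2.56. Its p was the 24th smallest of 16662 genes. No other annotated gene overlaps Eif2ak4, so its counts do not depend on how overlaps were treated.

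The rise of Eif2ak4 did not rest on 1 library. Its log2 change was 1.02 to 1.18 when each library was left out in turn, and 0.99 to 1.19 over 19 alternative settings, all called (adjusted p at most 0.0274). Within the PERK KO group, library 3 had the highest Eif2ak4 level and also the highest endothelial (278 CPM) and fibroblast (207 CPM) sums, with 1598 CPM of mast cell and 429 CPM of leukocyte markers. Library 4 had the lowest Eif2ak4 level and the highest leukocyte (1418 CPM) and mast cell (3140 CPM) sums. The part of these cells in the level of Eif2ak4 was not tested. All 4 PERK KO libraries were above all Scramble libraries in leukocyte, mast cell and epithelial markers and below them in melanocyte markers, so these differences and that of Eif2ak4 cannot be told apart by group.

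Eif2ak2 (chromosome 17, 78852564 to 78882573, minus strand) encodes PKR, an interferon-inducible kinase. It had 68.6, 68.5, 54.7 and 92.9 CPM in PERK KO libraries, against 62.1, 66.3, 61.4 and 71.3 CPM in Scramble libraries. The groups overlapped, with both the highest and the lowest library in the PERK KO group. The log2 difference was 0.13 (SE 0.14, 95% interval -0.18 to 0.43, edgeR adjusted p = 0.659), and it was -0.03 without PERK KO library 4. The interval allows a change from 0.88-fold to 1.35-fold. Of 28 other interferon-stimulated genes, 14 were higher and none lower in PERK KO libraries, with a median log2 change of 0.92, while 7.66% of all genes were higher and 6.13% lower. Their summed level was 805, 783, 740 and 1388 CPM in PERK KO libraries, against 537, 584, 492 and 574 CPM in Scramble libraries. Library 4 was highest and library 3 lowest of the PERK KO group in both that sum and Eif2ak2, while the groups were separate in the sum and overlapped in Eif2ak2. Leukocyte markers were also higher in every PERK KO library (350 to 1418 CPM in PERK KO, 69.3 to 147 CPM in Scramble) and highest in library 4. In PERK KO libraries 1 to 3 their order differed from that of the interferon-stimulated genes (350, 629 and 429 CPM of leukocyte markers). The part of leukocytes was not tested. A small RNA gene and a predicted gene overlap Eif2ak2 on the opposite strand, and the strand setting of the counting is not given in the sources used here.

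Eif2ak1 (chromosome 5, 143817788 to 143904251, plus strand) encodes HRI, which in red cell precursors matches globin synthesis to haem. It had 62.3, 62.0, 49.9 and 61.4 CPM in PERK KO libraries, against 66.0, 67.2, 62.8 and 58.4 CPM in Scramble libraries. The groups overlapped, and PERK KO library 3 was the lowest of the 8. The log2 difference was -0.11 (SE 0.10, 95% interval -0.33 to 0.11, edgeR adjusted p = 0.556), an interval from 0.80-fold to 1.08-fold. Aimp2 and Ankrd61 overlap Eif2ak1 on the opposite strand.

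**Figure D2:**
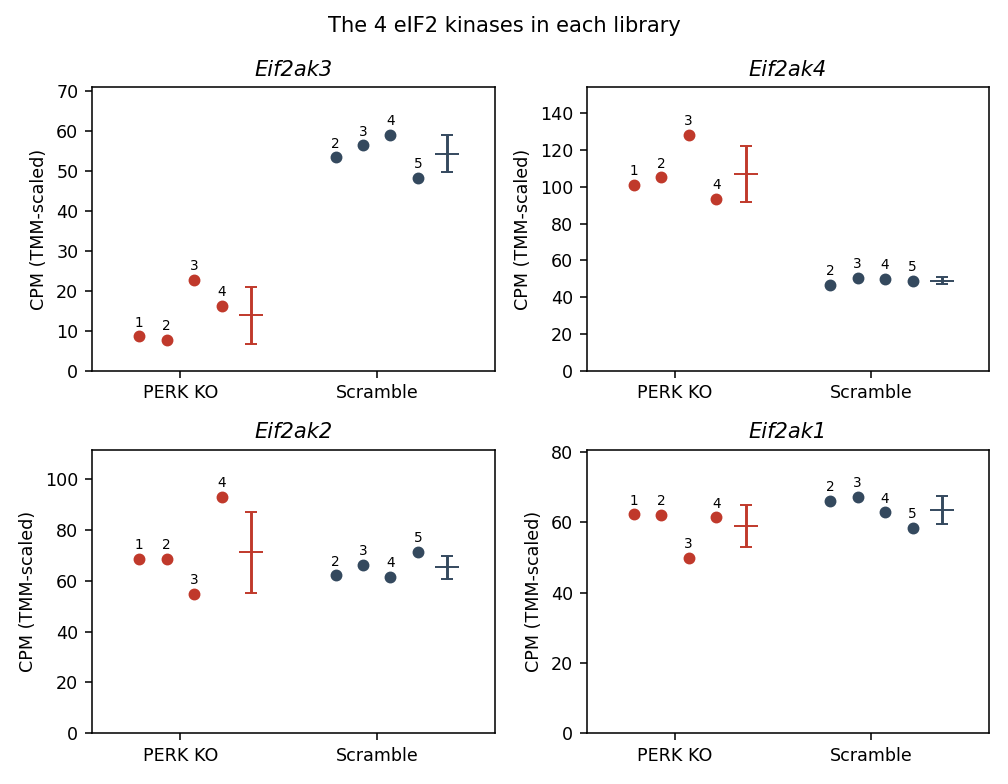
CPM (TMM-scaled, linear axes from 0) of the 4 kinases in each library, PERK KO libraries 1 to 4 on the left and Scramble libraries 2 to 5 on the right of each panel; bars give the mean ± SD (n = 4). Eif2ak3 and Eif2ak4 separate the groups in opposite directions, while Eif2ak2 and Eif2ak1 overlap.

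Levels of different genes were compared per length, as RPKM from the TMM-scaled CPM and the length of all annotated exons joined. Among the 4 kinases, Eif2ak4 had 14.3 ± 2.03 RPKM and Eif2ak2 13.9 ± 3.10 RPKM in PERK KO libraries, which did not differ beyond their spread. Eif2ak1 followed with 10.4 ± 1.06 RPKM, overlapping Eif2ak2, and Eif2ak3 was lowest with 2.30 ± 1.17 RPKM (SD, n = 4 each). In Scramble libraries the order was Eif2ak2 (12.8 ± 0.898 RPKM), Eif2ak1 (11.2 ± 0.695 RPKM), Eif2ak3 (9.01 ± 0.775 RPKM) and Eif2ak4 (6.57 ± 0.221 RPKM). By this length neighbours in that order did not overlap, and their overlap was not examined with other lengths. By the longest transcript, Eif2ak2 and Eif2ak1 took close mean shares of the 4 kinases in Scramble libraries, 29.6% and 28.8%. By joined exons Eif2ak4 stood level with Eif2ak2 at the top in PERK KO tumours and lowest in Scramble tumours.

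The share of Eif2ak3 among the 4 kinases, in RPKM, was 3.63, 3.23, 9.31 and 6.12% in PERK KO libraries and 22.8, 22.9, 24.8 and 20.7% in Scramble libraries. The share of Eif2ak4 was 34.4, 35.5, 42.5 and 28.3% in PERK KO libraries and 16.1, 16.5, 17.0 and 16.8% in Scramble libraries. The groups did not overlap in either share. Eif2ak2 took 33.8% on average in PERK KO and 32.3% in Scramble libraries and Eif2ak1 25.4% in PERK KO and 28.3% in Scramble libraries, with overlapping groups for both. The 4 kinases summed to 39.4, 39.7, 40.5 and 44.2 RPKM in PERK KO libraries, against 38.9, 41.0, 39.6 and 38.8 RPKM in Scramble libraries. The groups therefore overlapped in the sum, in which the loss of Eif2ak3 and the rise of Eif2ak4 were of like size (2.30 and 14.3 RPKM in PERK KO, 9.01 and 6.57 RPKM in Scramble). Without Eif2ak3, the 3 other kinases summed to 36.7 to 41.5 RPKM in PERK KO libraries and 29.8 to 31.6 RPKM in Scramble libraries. By joined exons these sums did not overlap, and they were not taken with other lengths. Of the 3, Eif2ak4 alone separated the groups in RPKM, while Eif2ak2 and Eif2ak1 overlapped. Shares and sums depend on the length used. With coding length alone, Eif2ak4 took 20.0% in PERK KO and 9.05% in Scramble libraries. It was then still the lowest of the 4 in Scramble libraries, but in PERK KO libraries it stood below Eif2ak2 (44.8%) and Eif2ak1 (31.2%), so its place at the top there depends on the length. Of the joined exons, 1545 of 5113 bases of Eif2ak2 and 5318 of 7457 bases of Eif2ak4 are coding. The same counts per gene were used with every length. Reads outside the coding bases were thus not taken out for the coding length, which raises genes with a small coding part. These values are descriptions with no test.

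**Figure D3:**
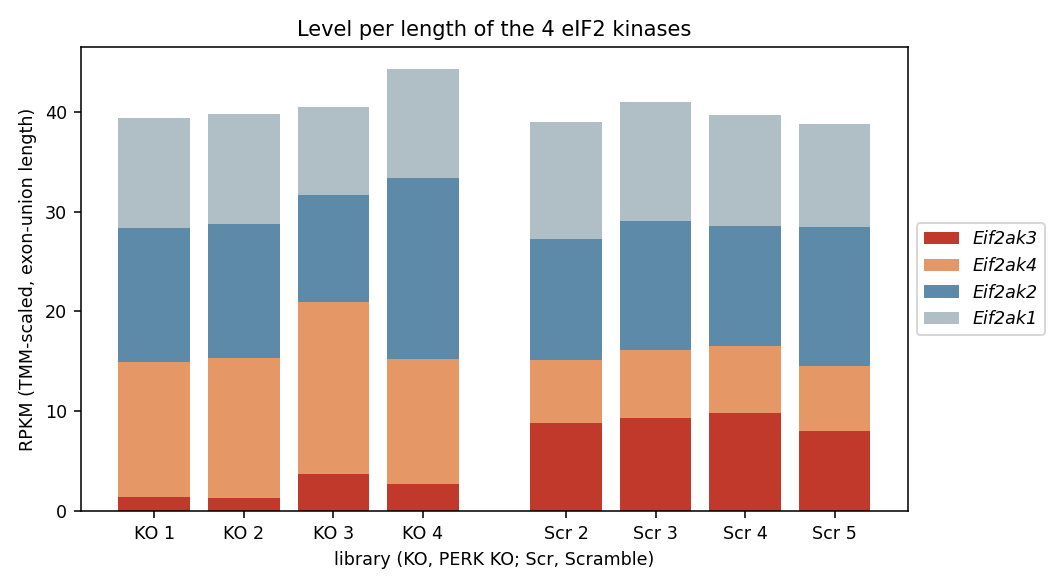
RPKM (TMM-scaled CPM per kilobase of joined exons) of the 4 kinases stacked for each library, PERK KO (KO) on the left and Scramble (Scr) on the right. The stacks reach 39.4 to 44.2 RPKM in PERK KO libraries and 38.8 to 41.0 RPKM in Scramble libraries, with a larger Eif2ak4 and a smaller Eif2ak3 segment in each PERK KO library.

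Genes next to Eif2ak4 and Eif2ak3 were examined for changes that span the neighbourhood. Of 20 tested protein-coding genes around Eif2ak4, 10 on each side, 1 rose and 3 fell, with a median log2 change of -0.02. That is 4 of 20 called and 3 of 20 around Eif2ak3, beside 13.8% of all genes, too few to read apart from that background. The nearest, Gpr176 before it and Srp14 after it, had log2 differences of 0.65 (SE 1.90, adjusted p = 0.887) and 0.11 (SE 0.12, adjusted p = 0.656), so neither passed. Srp14 encodes a subunit of the signal recognition particle. Plcb2, a phospholipase C, rose by 1.86 (SE 0.34, adjusted p = 0.00541), and Ivd, an enzyme of leucine breakdown, fell by 0.88 (SE 0.17, adjusted p = 0.00775). Meis2 fell by 0.38 (SE 0.11, adjusted p = 0.0404) and Bub1b by 0.30 (SE 0.08, adjusted p = 0.0348), calls lost in 13 and 12 of 19 settings. Both were lost without each of the Scramble libraries in turn (adjusted p from 0.0745 to 0.107 for Meis2 and from 0.0704 to 0.122 for Bub1b). That of Meis2 was also lost without PERK KO library 2 (0.0553), 3 (0.0524) or 4 (0.0525), and that of Bub1b without PERK KO library 1 (0.0616), 3 (0.0505) or 4 (0.0614). Around Eif2ak3, 3 of 20 rose and none fell, with a median of 0.13.

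**Figure D4:**
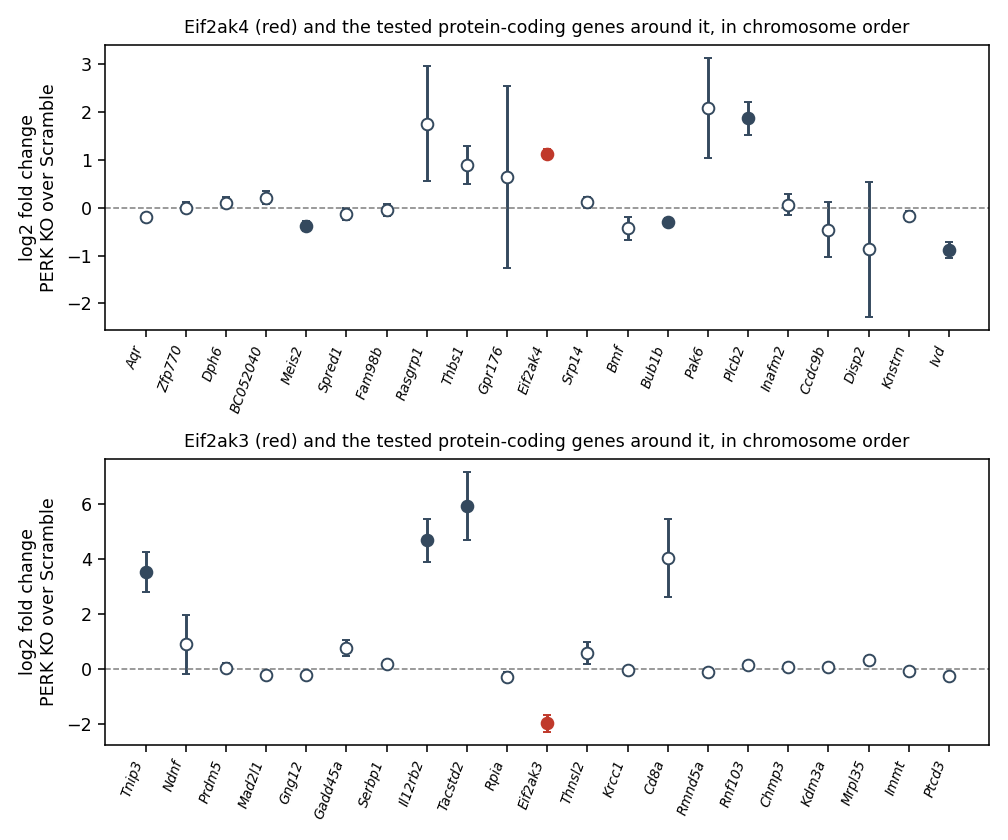
Log2 fold change (PERK KO over Scramble, with SE bars) of Eif2ak4 and Eif2ak3 in red and of the 10 tested protein-coding genes on each side in chromosome order; filled points passed an adjusted p of 0.05. The median of the neighbours is -0.02 around Eif2ak4 and 0.13 around Eif2ak3.

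The substrate and the exchange factor came next. Eif2s1 (chromosome 12, 78861819 to 78887010, plus strand) had 182.9, 163.7, 133.1 and 163.7 CPM in PERK KO libraries, against 160.9, 142.4, 185.5 and 180.2 CPM in Scramble libraries. The groups overlapped over nearly their whole range. The log2 difference was -0.06 (SE 0.11, 95% interval -0.31 to 0.19, edgeR adjusted p = 0.831), and 0.02 without PERK KO library 3. None of the 5 tested other subunits of eIF2 and eIF2B (Eif2s2, Eif2s3x, Eif2b1, Eif2b2 and Eif2b3) passed the test, with log2 differences from -0.14 to 0.10. Eif2s3y had no count in any library.

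Eif2b4 and Eif2b5 encode subunits of eIF2B, which reloads eIF2 with GTP and is the target of phosphorylated eIF2. They are not phosphatase subunits. Eif2b5 (chromosome 16, 20498817 to 20509323, plus strand), the catalytic subunit, had 37.1, 31.3, 33.0 and 31.1 CPM in PERK KO libraries, against 43.8, 48.3, 36.8 and 44.4 CPM in Scramble libraries. Only PERK KO library 1 reached into the Scramble range, above Scramble library 4. It fell by 0.39 (SE 0.11, 95% interval -0.64 to -0.14, edgeR adjusted p = 0.0431). That call stood near the threshold. It ended without PERK KO library 2 (adjusted p = 0.0805), 3 (0.0622) or 4 (0.0786) and without Scramble library 2 (0.109), 3 (0.154) or 5 (0.106), and in 14 of 19 settings in all, with adjusted p from 0.0307 to 0.154 and the direction kept. Eif2b4 (chromosome 5, 31187558 to 31193430, minus strand), a regulatory subunit, had 22.3, 22.9, 26.1 and 21.4 CPM in PERK KO libraries, against 25.3, 19.6, 25.4 and 17.6 CPM in Scramble libraries. These groups overlapped, with a log2 difference of 0.08 (SE 0.15, 95% interval -0.25 to 0.41, edgeR adjusted p = 0.821) that was -0.02 without Scramble library 5. Snx17 overlaps Eif2b4 on the opposite strand.

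Ppp1r15a (chromosome 7, 45522916 to 45526268, minus strand) encodes GADD34, the stress-induced subunit that closes the feedback loop of eIF2 phosphorylation. It had 48.4, 68.7, 49.2 and 91.9 CPM in PERK KO libraries, against 53.7, 50.9, 47.0 and 42.4 CPM in Scramble libraries. PERK KO libraries 2 and 4 lay above all Scramble libraries, and libraries 1 and 3 lay within their range. The log2 difference of 0.41 (SE 0.19, 95% interval 0.01 to 0.82) missed the threshold (edgeR adjusted p = 0.180). Without PERK KO library 4 it was 0.19 (adjusted p = 0.466). Tulp2 overlaps Ppp1r15a on the opposite strand.

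Ppp1r15b (chromosome 1, 133131143 to 133139783, plus strand) encodes CReP, the constitutive counterpart. It had 201, 161, 176 and 211 CPM in PERK KO libraries, against 210, 215, 204 and 187 CPM in Scramble libraries. The groups overlapped, with a log2 difference of -0.12 (SE 0.10, 95% interval -0.34 to 0.09, edgeR adjusted p = 0.493). A predicted gene overlaps Ppp1r15b on the opposite strand. Per length, Ppp1r15b stood above Ppp1r15a in both groups (33.5 and 22.0 RPKM in PERK KO, 36.5 and 16.5 RPKM in Scramble). Of the catalytic subunits of protein phosphatase 1 and the other eIF2 adaptors, 0 of 5 passed. Ppp1ca averaged 114.6 CPM in PERK KO and 133.4 CPM in Scramble libraries (adjusted p = 0.112), and Ppp1cc 95.2 CPM in PERK KO and 113.3 CPM in Scramble libraries (adjusted p = 0.0743). For both the groups did not overlap, as for 21.3% of all genes. Ppp1cb, the other catalytic subunit, averaged 250.6 CPM in PERK KO and 236.3 CPM in Scramble libraries, with overlap (adjusted p = 0.745). These subunits were named after their values were seen.

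Dnajc3 (chromosome 14, 118937976 to 118981697, plus strand) encodes P58IPK, a chaperone partner in the endoplasmic reticulum described as an inhibitor of PKR and PERK. It had 172, 158, 169 and 166 CPM in PERK KO libraries, against 198, 215, 205 and 214 CPM in Scramble libraries. The groups did not overlap, and both were tight. It fell by 0.32 (SE 0.07, 95% interval -0.48 to -0.16, edgeR adjusted p = 0.0150), to 0.80-fold of the Scramble level. The call ended without Scramble library 3 (adjusted p = 0.0638) or 5 (0.0503), while the log2 change stayed between -0.39 and -0.26 over 19 settings (adjusted p from 0.000211 to 0.138). Summed melanocyte markers were also lower in PERK KO libraries (20610 to 25050 CPM) than in Scramble libraries (29090 to 29750 CPM). The part of this difference in the fall of Dnajc3 was not tested. Hspa5, the chaperone that holds PERK inactive, averaged 887 ± 74.8 CPM in PERK KO and 890 ± 30.3 CPM in Scramble libraries (adjusted p = 0.982). It was named after its value was seen.

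**Figure D5:**
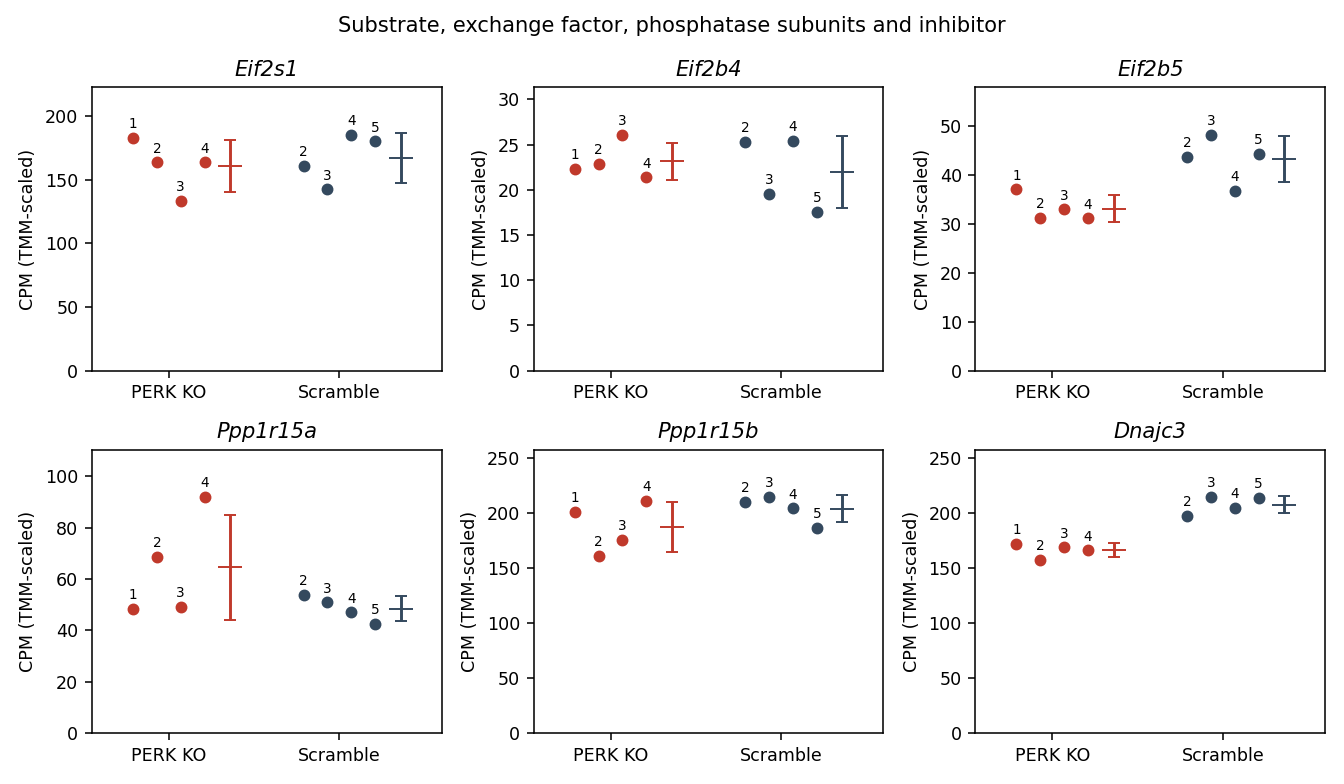
CPM (TMM-scaled, linear axes from 0) of the substrate, the exchange factor subunits, the phosphatase subunits and Dnajc3 in each library, PERK KO on the left and Scramble on the right of each panel, with mean ± SD (n = 4). Dnajc3 separates the groups (158 to 172 CPM in PERK KO, 198 to 215 CPM in Scramble), and the other 5 panels overlap.

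A list of 40 further genes of the pathway was examined, of which 39 were tested. Of these 3 rose, 3 fell and 33 did not pass, 15.4% called against 13.8% of all genes, with a median log2 change of -0.08. Among 10 partners of the kinases, 1 fell: Gcn1, listed in the table as Gcn1l1, the ribosome-bound protein that GCN2 needs for activation by uncharged tRNA. Gcn1 had 82.8, 90.0, 98.6 and 91.2 CPM in PERK KO libraries, against 117, 130, 116 and 113 CPM in Scramble libraries, without overlap. It fell by 0.39 in log2 units (SE 0.09, adjusted p = 0.0127 by edgeR), opposite in direction to Eif2ak4, and the call ended without Scramble library 3 (adjusted p = 0.0580) and with PERK KO library 4 and Scramble library 4 both left out (0.0524). Impact, which competes with GCN2 for Gcn1, averaged 21.8 CPM in PERK KO and 21.4 CPM in Scramble libraries (adjusted p = 0.946) and was named after its value was seen. Among 5 initiation factors met by eIF2, 1 fell: Eif2d, a factor that can deliver initiator tRNA, with 29.4 ± 0.927 CPM in PERK KO and 36.95 ± 1.03 CPM in Scramble libraries (adjusted p = 0.0389). The Eif2d call was lost in 13 of 19 settings, among them those without PERK KO library 1 (adjusted p = 0.0635) or 4 (0.0551) and without Scramble library 2 (0.110), 3 (0.105), 4 (0.120) or 5 (0.0799).

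Of 14 transcription factors and targets read out downstream of eIF2 phosphorylation, 3 rose, 1 fell and 10 did not pass. That is 28.6% called, beside 13.8% of all genes, and 14 genes give little to read against that share. Those that did not pass were Atf4, Atf5, Ddit3, Cebpg, Trib3, Chac1, Asns, Sesn2, Ddit4 and Slc7a11. Their edgeR adjusted p ran from 0.123 for Asns to 0.903 for Chac1. Atf3, a stress-induced transcription factor, had 70.9, 66.5, 49.9 and 100.6 CPM in PERK KO libraries, against 35.95, 31.7, 31.6 and 27.4 CPM in Scramble libraries. It rose by 1.18 (SE 0.18, edgeR adjusted p = 0.00250), and every PERK KO library lay above every Scramble library. Over all genes tested, the groups did not overlap, in either direction, for 21.3%. Cebpb, a transcription factor of stress and of myeloid cells, rose by 1.75 (SE 0.36, adjusted p = 0.00897), with 8.07, 14.2, 11.05 and 28.7 CPM in PERK KO libraries and 3.44 to 5.92 CPM in Scramble libraries. Library 4, highest in Atf3 and Cebpb, was also highest in leukocyte markers, and the part of those cells was not tested. Without it the log2 change was 0.98 for Atf3 and 1.27 for Cebpb, both still called (adjusted p = 0.00188 and 0.0132). Nupr1, a stress-induced chromatin protein, rose by 0.78 (SE 0.20, adjusted p = 0.0232), a call that ended without PERK KO library 2 (0.0528) and without Scramble library 2 (0.0755), 3 (0.0922) or 4 (0.0578). Vldlr, a lipoprotein receptor, fell by 1.51 (SE 0.23, adjusted p = 0.00246), with 3.89 ± 0.522 CPM in PERK KO and 11.05 ± 1.98 CPM in Scramble libraries.

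The transcripts at the centre of the response were named after their values were seen. Atf4, whose protein is raised by translation, had 311, 271, 208 and 246 CPM in PERK KO libraries, against 233, 233.5, 236 and 231 CPM in Scramble libraries. The groups overlapped, with library 3 of the PERK KO group below all Scramble libraries, and the log2 difference of 0.15 (SE 0.11, edgeR adjusted p = 0.443) did not pass. Ddit3, which encodes CHOP, averaged 14.9 ± 2.96 CPM in PERK KO and 15.8 ± 1.48 CPM in Scramble libraries (adjusted p = 0.828).

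The genes that varied most like Eif2ak3 within the groups, by the Pearson correlation of deviations from the group mean of log2 CPM over 8 libraries among 11795 genes, were P2rx4 (r = 0.985), Gm42664 (0.983), Qtrt2 (0.981), Tk2 (0.978) and Dctn5 (0.971). For Eif2ak2 they were Zranb1 (0.994), Melk (0.992), Psmc3 (0.984), Sri (0.982) and Psme1 (0.981). All points of these correlations share the same 8 libraries, and the genes are the highest of many. Eif2ak3 varied more within PERK KO libraries (13.8 ± 7.07 CPM) than within Scramble libraries (54.3 ± 4.67 CPM). So did Eif2ak2 (71.2 ± 15.9 CPM in PERK KO, 65.3 ± 4.59 CPM in Scramble). The 4 PERK KO libraries therefore weigh most in these correlations.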

How the data were processed

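Per the labels' protocols, tumours were digested with liberase and DNase, freed of red cells and passed over magnetic beads for c-Kit, without flow sorting; strand-specific libraries made from 100 ng of RNA gave read pairs of 105 bases. The submitters' processing notes name bcl2fastq, STAR 2.5.3a, HTSeq 0.6.1, DESeq2 1.30.1 and mm10, without roles or settings. Whether the counting used strand is therefore unknown. The authors deposited raw counts, whole numbers per gene and library, which were the base of every result. The normalized signal that the authors deposited equals those counts divided by 1 factor per library and served only as a check of the counts.

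All 55450 gene identifiers matched GENCODE M21 (GRCm38, the assembly of mm10), used for positions and lengths. In R 4.3.3, edgeR 4.0.16 filtered genes with filterByExpr by group, scaled counts with TMM factors (0.863 to 1.03) and fitted the robust quasi-likelihood model on group over all 16662 genes tested, with Benjamini-Hochberg adjustment over them and calls at 0.05. SEs are the log2 change over the root of F, and 95% intervals use the t distribution on the fit's degrees of freedom. The biological coefficient of variation was 46.3%. Log2 CPM used a prior count of 2. No library was a duplicate of another. The same code was tested on simulated counts.

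The genes and lists were chosen with earlier results of these data known. All 10 members are named, and, of the pathway list, those called. Of the marker lists sums and counts are given, and Kit, Gata2 and Mpo are named. Nearest genes are the 5 highest correlations among genes whose mean log2 CPM was 1 or more. Hspa5, Impact, Ppp1ca, Ppp1cb, Ppp1cc, the other subunits of eIF2 and eIF2B and the neighbours by position were added to that rule. So were Atf4, Ddit3 and the other downstream genes that did not pass. Alternatives were DESeq2 1.42.0, limma-voom (limma 3.58.1), scaling by RLE, by upper quartiles and by library totals, no filter, a filter of 1 CPM in 4 libraries, a fit that is not robust, a replicate block, libraries left out and other gene lengths. The R package data.table (version 1.17.8) read the files; plots were drawn with matplotlib 3.10.9 from tables made with pandas 2.3.3 and numpy 2.4.6 under Python 3.11.15.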

Additional observations from a re-analysis of the deposited data

Results flagged for a closer look

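Among the 20 groups of 4 CPM values (10 genes, each in PERK KO and in Scramble libraries), 1 held a library far from the others. Eif2ak1 had 49.9 CPM in PERK KO library 3, against 61.4 to 62.3 CPM in the other PERK KO libraries. Its gap to the nearest library took 0.927 of the group's range, above Dixon's 95% critical value for 4 values. Chance flags about 1 in 20 groups, which is the number seen. Library 3 also had the highest Eif2ak4 and Eif2ak3 levels and the lowest Eif2ak2 level of the PERK KO group.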

How the results depend on the processing

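Eif2ak3 and Eif2ak4 kept direction and call in all 19 alternatives, Dnajc3 in 15 and Eif2b5 in 5 (the other 4 and 14 kept the direction without the call). Leaving out each library gave 1078 to 2616 calls over all genes (639 to 1372 higher, 439 to 1244 lower) and 2 to 4 called members; calls were fewest without Scramble library 3 (1078), 2 (1283), 5 (1361) and 4 (1428), and were 1998 to 2616 without a PERK KO library, against 2299 with all 8. Leave-one-out log2 differences ran from -0.13 to 0.0215 for Eif2s1, -0.0332 to 0.23 for Eif2ak2, -0.0196 to 0.15 for Eif2b4 and -0.184 to 0.0294 for Ddit3, all short of the threshold throughout. Without PERK KO library 4 and Scramble library 4 there were 1279 calls (779 higher, 500 lower), 2 members called, and log2 differences of -0.0602 for Eif2ak2 and 0.0414 for Ddit3. Without PERK KO libraries 2 and 3 the differences were 0.0511 for Eif2s1, -0.00602 for Eif2b4 and 0.0154 for Ppp1r15b. DESeq2 called 2069 genes higher. Upper-quartile scaling called 653 lower; higher genes were 68.7% of calls with it, 64.0% with RLE, 47.7% with library totals and 55.5% with TMM, while the median log2 change of all genes was 0.04, 0.02, -0.09 and -0.02 in the same order. The cause of these shifts was not tested. With coding length, mean shares of the 4 kinases were 15.8% for Eif2ak3 in Scramble, 20.0% in PERK KO and 9.05% in Scramble for Eif2ak4, 44.8% in PERK KO and 41.5% in Scramble for Eif2ak2, 31.2% in PERK KO and 33.6% in Scramble for Eif2ak1, with a sum of 102 RPKM in PERK KO and 102 RPKM in Scramble; with the longest transcript, Scramble shares were 18.1% for Eif2ak4 and 29.6% for Eif2ak2, with sums of 53.4 RPKM in PERK KO and 51.1 RPKM in Scramble. These follow from the lengths.

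The replicate numbers 2, 3 and 4 occur in both groups, and the sources used here do not say whether same-numbered libraries were handled together. Deviations from the group means correlated at -0.0381, 0.109 and -0.375 between same-numbered libraries. All pairs of a PERK KO and a Scramble library ranged from -0.375 to 0.354. Each value rests on 1 pair of libraries, so these correlations cannot show whether a shared number marks a shared step. In a fit with the replicate number as a block, PERK KO library 1 and Scramble library 5 have no partner. They add nothing to the comparison there, which rests on numbers 2, 3 and 4 with fewer degrees of freedom. The cause of the change in calls in that fit was not tested. With the replicate block there were 208 calls (127 higher, 81 lower) and 2 called members, Eif2ak3 and Eif2ak4; the calls of Dnajc3 (log2 change -0.325), Eif2b5 (-0.425), Gcn1 (-0.372), Eif2d (-0.326), Atf3 (1.07), Cebpb (1.84), Nupr1 (0.808), Vldlr (-1.43), Plcb2 (1.85), Ivd (-1.03), Meis2 (-0.435) and Bub1b (-0.297) did not pass in that fit, with adjusted p from 0.0622 to 0.238. With 4 tumours a group, an interval that includes 0 does not show that a level was equal in both groups, and no protein or phosphorylation was measured.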
